A study of Mus musculus with 6 samples.

Results

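Matrix proteases and their tissue inhibitors were followed as 60 genes of 17551 in the count table: every gene with a symbol of the Mmp, Adamts or Adam series, and Timp2, Timp3 and Timp4. They comprised 20 Mmp, 18 Adamts, 19 Adam and 3 Timp genes. They were picked by symbol, without a threshold on a measured value, but with earlier results of these data known. RNA had been sequenced from mouse neurospheres, spheres of cells from C57BL/6 mice, grown unattached in medium that held EGF and FGF. There were 2 groups of 3 libraries. The G328V group carries the genotype label ACVR1 G328V, a glycine-to-valine change in the BMP type I receptor ACVR1, and the WT group carries the label ACVR1 WT. The submitters also call the groups NPAC and NP without spelling out the letters, and no allele beside ACVR1, no treatment and no animal age is given. Replicates are numbered 1, 2 and 3 in G328V and 1, 3 and 70A in WT, and values are listed in that order throughout. They are called biological, but the animals or cultures behind them are not described, and p-values therefore cover only how far the libraries spread, which may be technical.

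Matrix metalloproteinases (MMPs) are zinc enzymes that cut collagens, gelatin, proteoglycans and other matrix proteins. Most are secreted as inactive precursors, and the membrane-type MMPs are held at the cell surface. ADAMTS enzymes are secreted relatives with thrombospondin repeats that cut proteoglycans and procollagens. ADAMs sit in the membrane and release the outer parts of ligands and receptors such as Notch, and several of them have lost the catalytic site and act as receptors. TIMPs block the active-site zinc of these enzymes. In the brain, the matrix is rich in chondroitin sulfate proteoglycans, which are substrates of the ADAMTS proteoglycanases.

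Libraries held 115953495 to 191115532 counts. Levels are given in CPM, the count scaled to the TMM-adjusted library size, and levels of different members are ranked only as CPM per kb of annotated exon. Sums over marker lists are in CPM, so long genes weigh more in them. Acvr1 ranged from 244 to 650 CPM among G328V libraries and from 42.4 to 100 CPM among WT libraries. The X-linked RNA Xist had 76093 to 128424 counts in the G328V libraries versus 44 to 206 in WT, and the Y-linked gene Ddx3y had at most 6 counts in G328V and at least 3119 in WT, so sex-linked expression and genotype cannot be told apart in any difference between the groups. Of the neural stem markers, Sox2 lay at 134 to 237 CPM, Nes at 91.1 to 962 CPM and Vim at 1717 to 3188 CPM across the 6 libraries, while Hes5 reached at most 0.243 CPM. The 5 oligodendrocyte precursor markers did not move together. WT replicate 1 held 614 CPM of Olig1 and 416 CPM of Olig2, neither of which exceeded 1.07 CPM in another library. Pdgfra was lowest in WT replicate 1, at 9.64 CPM where the others had 12.6 to 158 CPM, and Cspg4 and Sox10 were at 3.27 and 0.0568 CPM there. The list summed to 1043 CPM in WT replicate 1 and to 13.6 to 231 CPM in the other libraries. In these bulk libraries, fewer cells of a type and less RNA per cell cannot be told apart.

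No protease or TIMP gene passed the test between G328V and WT. Of the 60 genes, 50 had enough counts to be tested, and edgeR's quasi-likelihood test called 0 of the 50 at an FDR under 0.05, where it called 0 of 14643 genes (0%). At an unadjusted p under 0.05 it counted 0 of the 50, beside 594 of 14643 genes (4.06%). The adjusted p of every tested member was 0.997 or 0.998. The groups did not overlap for 1 of the 50 members, Adamts6, which is 2% of them, beside 9.72% of all genes tested (4.47% with G328V lower and 5.25% with G328V higher). Differences were positive, that is higher in G328V, for 21 members and negative for 29, with a median log2 difference of -0.26 beside -0.0039 over all genes tested. By family, 6 of 17 tested Mmp genes, 6 of 16 Adamts genes, 7 of 14 Adam genes and 2 of 3 Timp genes had positive differences. DESeq2, run as an alternative, called 1 of the 47 members to which it gave an adjusted p, Mmp12. Over all genes it called 173 of the 16521 with an adjusted p (1.05%, with 0.478% lower in G328V, the direction of Mmp12). It left the adjusted p of 13 members as NA.

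**Figure D1:**
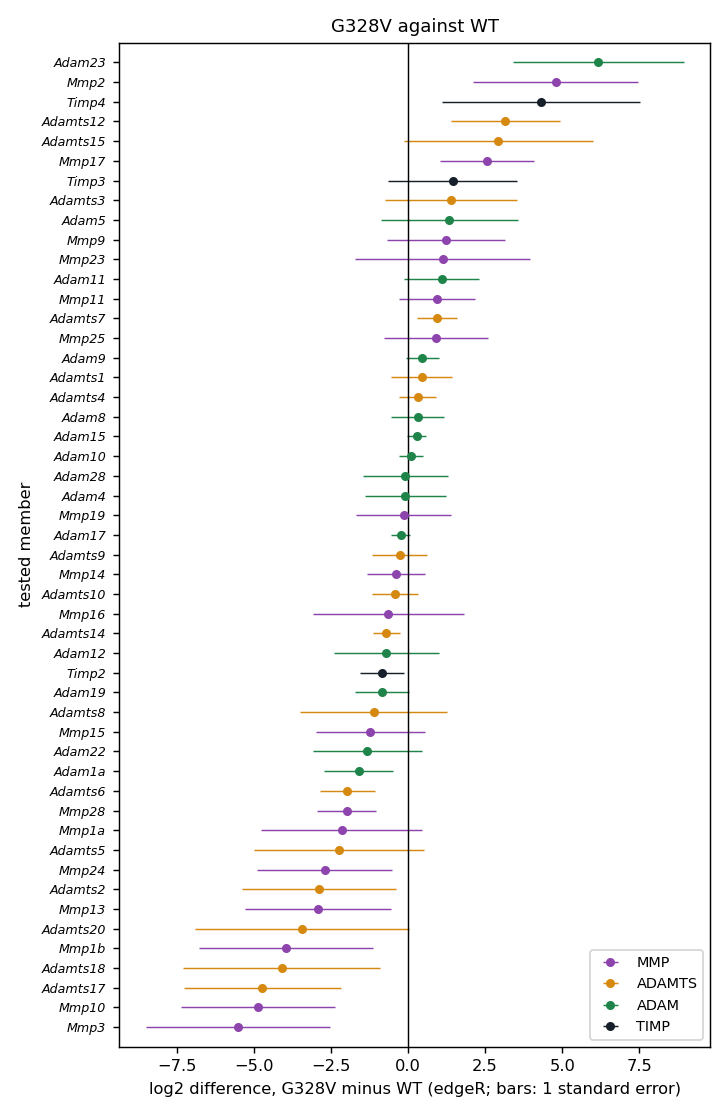
Log2 difference in level between G328V and WT (x axis, G328V minus WT, from edgeR) for each of the 50 tested members, ordered by size and coloured by family, with bars of 1 standard error. The points run from -5.52 for Mmp3 to 6.17 for Adam23.

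Many members were high in a single library. In 14 of the 50 tested members (28%) a single library held at least 70% of the CPM summed over the 6 libraries, beside 5.72% of all genes tested. By family, these were 8 of 17 Mmp, 5 of 16 Adamts, 1 of 3 Timp and 0 of 14 Adam genes. The median share held by the highest library was 50.1% for the members and 27.9% for all genes. Among the 36 members counted in every library, the highest library exceeded the lowest by a median of 17.9-fold, beside 2.88-fold over 12663 genes. The highest level of a member fell in WT replicate 1 for 17 of the 50 and in WT replicate 70A for 11, beside 23.1% and 10.8% of all genes. It fell in G328V replicate 2 for 11 members and 19.1% of all genes, in G328V replicate 3 for 6 and 15.0%, in G328V replicate 1 for 4 and 13.6%, and in WT replicate 3 for 1 and 18.4%. The labels name no batch. The ribosomal RNA gene Rn45s took 4.17%, 4.39% and 3.16% of the counts in G328V libraries and 8.21%, 4.73% and 10.7% in WT ones. The part of such differences in these levels was not tested.

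**Figure D2:**
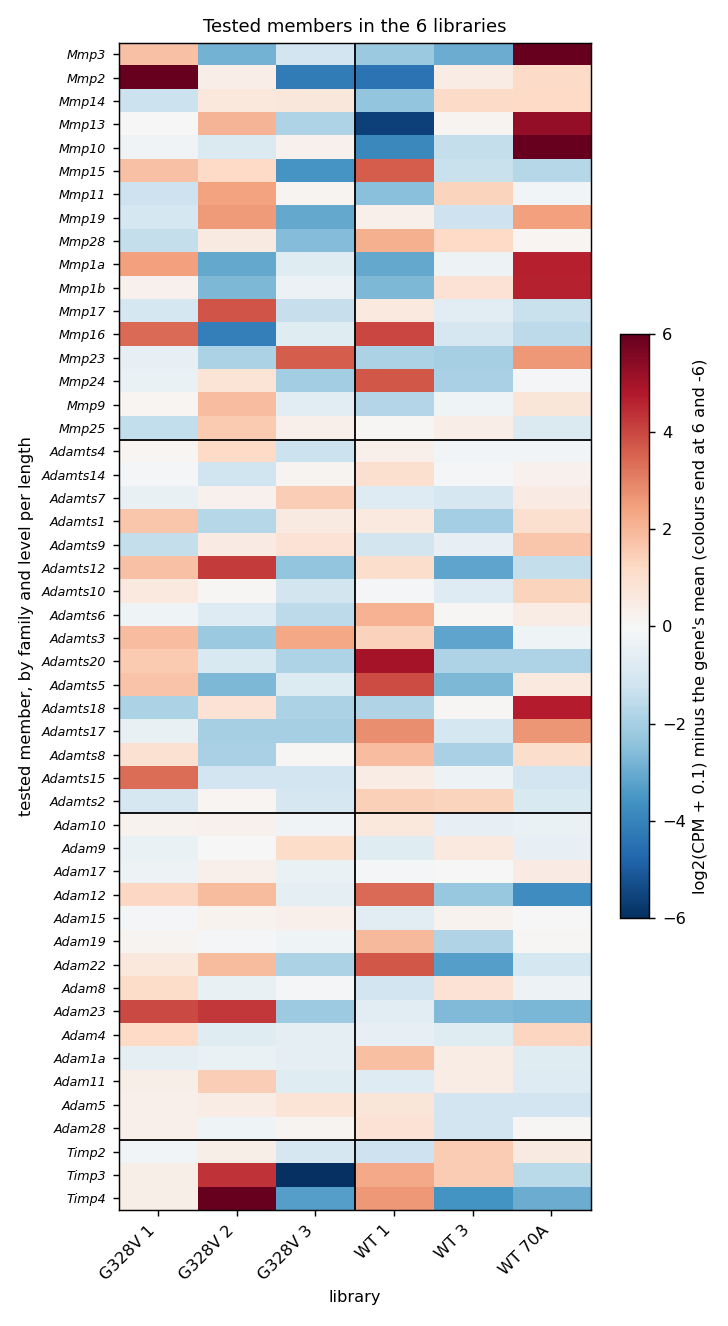
Level of the 50 tested members (rows, by family and, within a family, by falling level per kb) in the 6 libraries (columns), as log2(CPM + 0.1) minus the gene's mean over the libraries, with colours ending at 6 and -6. Deep colours sit in single libraries, such as Mmp3, Mmp10 and Mmp13 in WT replicate 70A, Mmp2 in G328V replicate 1 and Timp4 in G328V replicate 2, while Adam10, Adam15 and Adam17 are pale throughout.

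The stromelysins and collagenases encoded side by side on chromosome 9 were high together in WT replicate 70A. The count table held 7 Mmp genes of this cluster, in the order Mmp13, Mmp12, Mmp1b, Mmp3, Mmp1a, Mmp10 and Mmp8. These 7 span 296 kb from 7272514 to 7568485 (GRCm38). The authors' Cufflinks table listed 10 genes of the cluster, and Mmp7, Mmp20 and Mmp27, found only there, had 0 estimated fragments in every library. WT replicate 70A held the highest level of 6 of the 7 in the count table, and of 1 of its 13 Mmp genes that lie elsewhere. Mmp3, a stromelysin with many matrix substrates, measured 13.1, 0.448 and 1.66 CPM in G328V libraries versus 0.747, 0.403 and 693 CPM in WT ones. WT replicate 70A was thus 53.1-fold above the next library, and the remaining WT libraries lay within or below the range of G328V. Mmp10, a related stromelysin, had values of 1.99, 1.24 and 2.78 CPM across G328V compared with 0.0649, 0.818 and 174 CPM across WT. Mmp13, a collagenase that cuts fibrillar collagen, showed 6.37, 26.1 and 1.69 CPM among G328V libraries, with 0.0325, 7.11 and 250 CPM among those of WT. For both of these genes too, WT replicate 70A stood above every other library, and WT replicate 1 was the lowest of the 6.

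Mmp1a and Mmp1b, the mouse relatives of human interstitial collagenase, were also highest in WT replicate 70A. Mmp1a measured 4.81, 0.0083 and 0.446 CPM in G328V libraries versus 0.0081, 0.619 and 22.8 CPM in WT ones. Mmp1b had 119, 0 and 77 counts in the G328V libraries versus 0, 194 and 2813 in WT. These genes are close relatives, so reads could be split between them, and the counting settings are not given. Mmp12, known as macrophage elastase, had 0, 1 and 0 counts in the G328V libraries versus 0, 309 and 819 in WT replicates 1, 3 and 70A. It did not reach the count filter of edgeR. DESeq2 gave Mmp12 a log2 difference of -9.89 with an adjusted p of 0.0233, and its adjusted p ranged from 0.0233 to 1.0 over the 6 alternatives that tested it. WT replicate 1 had as few counts of Mmp12 as the G328V libraries, so the groups overlapped. The exons of Mmp12 and Mmp1b share 157 bases on opposite strands, and the use of strand in counting is not given. Mmp8, a collagenase of neutrophils, had 14 counts in G328V replicate 3 and 0 in the other libraries, where a count of 0 allows up to 3 fragments.

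**Figure D3:**
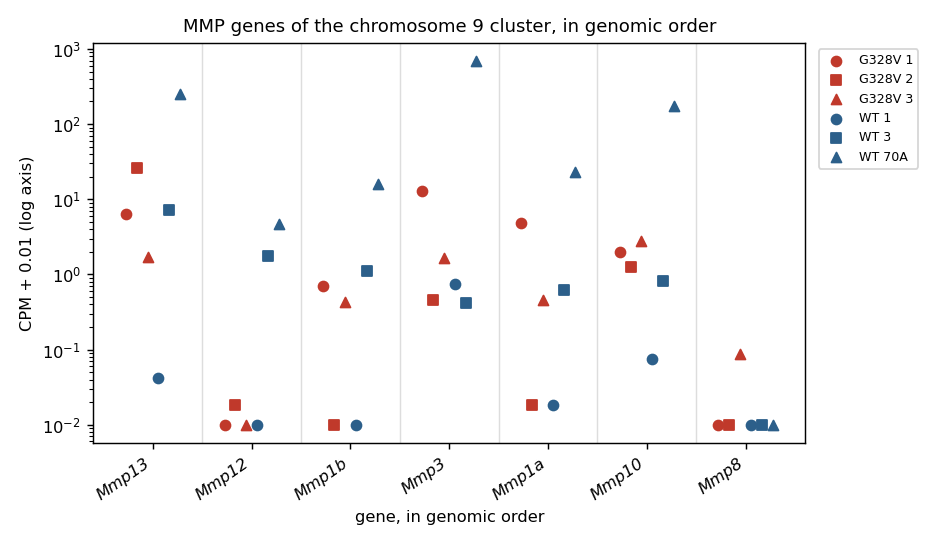
Level of the 7 Mmp genes of the chromosome 9 cluster in the count table (x axis, in genomic order) in each library, as CPM + 0.01 on a log axis. The 3 G328V libraries are red and the 3 WT libraries blue, with 1 point per library. WT replicate 70A is the highest point for every gene but Mmp8.

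Between the groups, Mmp3, Mmp10 and Mmp13 differed by -5.52 ± 3.00 (SE), -4.87 ± 2.51 and -2.91 ± 2.36 on the log2 scale. With limma-voom they were -1.56, -0.52 and -0.14, and without WT replicate 70A they turned to 3.14, 2.17 and 1.65. The direction of these genes between G328V and WT therefore rested on that single library. In WT replicate 70A, Mmp3 led the family by level per kb with 57.0% of the summed level per kb of all Mmp genes, followed by Mmp10 with 15.0%. Plau, the urokinase-type plasminogen activator, which generates plasmin, an activator of several MMP precursors, was also highest there, at 643 CPM against 5.26 to 115 CPM in the other libraries. The fibroblast and mural markers, all 7 of them in the table, summed to 506 CPM in WT replicate 70A, to 8.23 and 20.0 CPM in the other WT libraries and to 61.0, 106 and 300 CPM in G328V. Of that sum in WT replicate 70A, Col3a1 made up 455 CPM, Pdgfrb 43.2 CPM, Col1a1 5.23 CPM and Rgs5 1.87 CPM, while Col1a2, Lum and Dcn lay at 0.293, 0.167 and 0.0976 CPM. In G328V replicate 3, Rgs5 made up 299 CPM of the 300 CPM. The 5 microglia and macrophage markers in the table summed to 16.1 CPM in WT replicate 70A, 1.79 and 81.2 CPM in the other WT libraries and 20.9 to 63.4 CPM in G328V. In WT replicate 70A, Cd68 made up 15.7 CPM of the sum and Cx3cr1 was at 0. The part of such cells in the levels of the Mmp cluster was not tested.

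The promoters of 4 of these cluster genes, and that of Mmp14 from outside the cluster, are shown because the former were high in the same library and Mmp14 was above 20 CPM in all. The sequences are RefSeq windows of 300 bases (GRCm38.p6), from 250 bases before to 50 bases after the annotated start, in the direction of the gene. Capitals mark the AP-1 motif TGAGTCA or its reverse complement, and the TATA motif TATAAA or its reverse complement. The windows lie at chr9:7272264-7272563 for Mmp13, chr9:7445572-7445871 for Mmp3, chr9:7463891-7464190 for Mmp1a, chr9:7502092-7502391 for Mmp10 and chr14:54431348-54431647 for Mmp14, all on the plus strand.
Mmp13: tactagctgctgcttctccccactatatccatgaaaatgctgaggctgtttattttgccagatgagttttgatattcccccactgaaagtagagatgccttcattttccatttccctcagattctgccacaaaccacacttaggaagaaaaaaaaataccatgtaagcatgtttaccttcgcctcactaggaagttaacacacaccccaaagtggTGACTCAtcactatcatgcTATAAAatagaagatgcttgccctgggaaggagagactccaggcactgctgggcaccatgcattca
Mmp3: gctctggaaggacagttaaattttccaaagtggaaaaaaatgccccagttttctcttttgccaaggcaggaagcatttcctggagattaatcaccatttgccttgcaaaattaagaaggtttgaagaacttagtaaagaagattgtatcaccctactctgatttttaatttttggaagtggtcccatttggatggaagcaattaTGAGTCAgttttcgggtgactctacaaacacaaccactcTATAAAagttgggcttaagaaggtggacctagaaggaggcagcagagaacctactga
Mmp1a: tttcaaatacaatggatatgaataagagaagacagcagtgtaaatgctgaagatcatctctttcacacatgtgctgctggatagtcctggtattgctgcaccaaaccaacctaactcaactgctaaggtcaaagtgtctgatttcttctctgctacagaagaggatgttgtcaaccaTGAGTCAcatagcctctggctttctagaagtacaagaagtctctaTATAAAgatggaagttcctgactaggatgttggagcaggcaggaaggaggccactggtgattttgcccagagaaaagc
Mmp10: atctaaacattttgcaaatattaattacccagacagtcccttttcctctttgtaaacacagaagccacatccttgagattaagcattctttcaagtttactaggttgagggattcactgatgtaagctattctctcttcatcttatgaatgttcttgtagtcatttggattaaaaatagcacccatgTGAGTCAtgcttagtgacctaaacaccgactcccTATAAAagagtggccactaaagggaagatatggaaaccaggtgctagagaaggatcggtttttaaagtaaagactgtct
Mmp14: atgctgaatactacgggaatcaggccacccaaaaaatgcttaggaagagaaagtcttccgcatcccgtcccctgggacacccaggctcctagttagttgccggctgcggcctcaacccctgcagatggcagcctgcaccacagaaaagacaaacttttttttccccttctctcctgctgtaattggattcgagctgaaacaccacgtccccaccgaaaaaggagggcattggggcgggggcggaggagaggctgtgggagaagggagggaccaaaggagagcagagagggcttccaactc

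Windows were found for 36 of the 60 members. In the windows shown the motifs did not overlap. The AP-1 letters stood in a window of 6 of the 7 cluster genes in the count table, all but Mmp8. They also stood in 1 of the other 29 members, Adam19. Some members had more than 1 window. Counted by window, the AP-1 letters stood in 7 of 40 windows of members and in 6 of 8 of the cluster genes, beside 5.20% of 32851 windows of the same length. The first base of the motif lay 35, 46, 73 and 63 bases before the annotated start in Mmp13, Mmp3, Mmp1a and Mmp10. The TATA letters stood in a window of all 7 of these cluster genes and of 9 of the 36 members. By window these were 7 of 8 and 9 of 40, beside 13.6% of all windows. Mmp14 held neither motif in its window. A match says only that these letters are present.

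The gelatinases Mmp2 and Mmp9, which cut denatured collagen and basement membrane collagen, averaged 42.1 and 0.102 CPM per kb. Mmp2 (chromosome 8, 92827291 to 92853420, plus strand) had values of 810, 11.04 and 0.359 CPM across G328V compared with 0.284, 11.1 and 18.4 CPM across WT. G328V replicate 1 alone held 95.2% of the summed level, and the other 5 libraries of both groups covered the same low range. The log2 difference of 4.78 ± 2.67 (SE) turned to -0.80 without G328V replicate 1. In that library Mmp2 made up 87.7% of the summed level per kb of all Mmp genes. G328V replicate 1 also held 65.1 CPM of Sox10, a factor of oligodendrocyte precursors and neural crest derivatives, against at most 0.0574 CPM in any other library, while Olig1 and Olig2 were at 1.07 and 0.938 CPM there. Of the other markers of that list, Cspg4 was highest in this library, at 61.8 CPM, and Pdgfra, at 102 CPM, was below the 158 CPM of G328V replicate 2. The part of such cells in the level of Mmp2 was not tested. Mmp9 had 46, 137 and 20 counts in the G328V libraries versus 0, 33 and 79 in WT, so it reached at most 1.14 CPM.

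Mmp14 is a membrane-type MMP that activates the Mmp2 precursor at the cell surface together with TIMP2. It had the highest level per kb of all Mmp genes in 3 of the 6 libraries. It showed 52.7, 199 and 201 CPM among G328V libraries, with 24.5, 278 and 293 CPM among those of WT. Replicate 1 of each group was low and the other 4 libraries were high, so the groups overlapped, and the log2 difference was -0.40 ± 0.93 (SE). Mmp15 and Mmp16, further membrane-type enzymes, were highest in replicate 1 of each group. Mmp15 measured 31.7, 21.2 and 0.723 CPM in G328V libraries versus 119, 3.58 and 2.79 CPM in WT ones, and Mmp16 had values of 17.6, 0 and 0.913 CPM across G328V compared with 27.5, 0.744 and 0.465 CPM across WT. WT replicate 1 was the highest library of both. Mmp17, a glycosyl-phosphatidylinositol-anchored enzyme, was highest in G328V replicate 2, at 59.4 CPM, while the others had 1.58 to 6.44 CPM. Its log2 difference of 2.55 ± 1.53 (SE) turned to -1.01 without that library. Mmp24 was at 6.07 CPM in WT replicate 1, but no more than 0.722 CPM elsewhere. Its HTSeq and Cufflinks values disagreed in G328V replicate 3, with 2 counts against 74 estimated fragments, and in WT replicate 3, with 4 counts against 85. The log2 difference was -2.71 with HTSeq counts and -1.72 with the Cufflinks table, and the exons of Mmp24 share 637 bases with BC029722 on the opposite strand.

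Of the remaining Mmp genes, Mmp28, or epilysin, had the smallest unadjusted p. It showed 3.00, 12.1 and 1.29 CPM among G328V libraries, with 36.8, 19.2 and 8.99 CPM among those of WT, and the groups overlapped because G328V replicate 2 lay above WT replicate 70A. The log2 difference was -1.99 ± 0.96 (SE), with an unadjusted edgeR p of 0.0826. It was -3.34 without G328V replicate 2, and over all 15 alternatives it ranged from -3.76 with the replicate block to -1.40 without WT replicate 1. Mmp11 and Mmp19 were highest in G328V replicate 2, at 45.4 and 40.2 CPM, and Mmp19 reached 37.6 CPM in WT replicate 70A. Mmp23 was at 4.88 CPM in G328V replicate 3 against 2.32 CPM in WT replicate 70A, and at most 0.181 CPM in the others. Mmp25 reached at most 0.764 CPM.

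Adamts4, Adamts14, Adamts7 and Adamts1 had the highest levels per kb among Adamts genes. Adamts4, a proteoglycanase of aggrecan and brevican, measured 109, 225 and 40.3 CPM in G328V libraries versus 124, 88.2 and 90.0 CPM in WT ones. All 3 WT libraries lay within the range of G328V, and the log2 difference was 0.31 ± 0.60 (SE). Adamts14, a procollagen N-proteinase, had values of 81.3, 39.2 and 100 CPM across G328V compared with 170, 84.2 and 106 CPM across WT, with a log2 difference of -0.71 ± 0.44 (SE). The groups overlapped, since G328V replicate 3 lay above WT replicate 3. Adamts7, which cuts cartilage oligomeric matrix protein, showed 41.3, 67.6 and 158 CPM among G328V libraries, with 32.9, 27.8 and 78.4 CPM among those of WT, and a log2 difference of 0.94 ± 0.63 (SE). Adamts1 measured 98.3, 9.37 and 43.8 CPM in G328V libraries versus 45.3, 7.47 and 59.0 CPM in WT ones, so both groups spanned a similar range.

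Adamts6, a relative of Adamts10 that is linked to fibrillin matrices, was the single tested member whose groups did not overlap. It had values of 1.97, 1.35 and 0.723 CPM across G328V compared with 10.1, 2.44 and 3.22 CPM across WT, all 3 WT libraries being higher. The means were 1.35 ± 0.62 and 5.26 ± 4.22 CPM (SD, n = 3 each). The log2 difference was -1.97 ± 0.89 (SE), and edgeR's adjusted p was 0.997, with a range of 0.359 to 1.0 over 15 alternatives. Without WT replicate 1, the highest library, the difference was -1.09.

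Several Adamts genes were detected in few libraries. WT replicate 1 held most of Adamts20, a versican-cutting enzyme, at 11.6 CPM there and at most 0.973 CPM elsewhere, and of Adamts5, an aggrecanase, at 9.60 CPM against at most 1.97 CPM. Adamts16 had 566 counts in WT replicate 1, 70 in WT replicate 3 and 0 in the other libraries, and Adamts19 had 346 counts in WT replicate 1 and 0 elsewhere. WT replicate 1 is also the library in which Olig1 and Olig2 were high and Pdgfra, Cspg4 and Sox10 were not, and the part of oligodendrocyte precursors in these levels was not tested. Adamts12, which also cuts cartilage oligomeric matrix protein, showed 18.0, 100.5 and 0.941 CPM among G328V libraries, with 11.03, 0.494 and 1.90 CPM among those of WT, and G328V replicate 2 held 75.6% of its summed level. Adamts18 was at 9.83 CPM in WT replicate 70A, but no more than 0.59 CPM elsewhere. Adamts17 was highest in WT replicates 1 and 70A, at 2.67 and 2.39 CPM, and did not exceed 0.192 CPM in the others, with a log2 difference of -4.72 ± 2.55 (SE). Adamts9, a versican-cutting enzyme, measured 12.7, 49.1 and 63.9 CPM in G328V libraries versus 16.4, 24.5 and 111 CPM in WT ones. Adamts10 lay between 3.17 and 17.3 CPM, and Adamts2, Adamts3, Adamts8 and Adamts15 reached at most 0.446, 4.34, 1.27 and 2.22 CPM.

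Adam10, Adam15 and Adam17 had the smallest ranges of level among the members counted in all 6 libraries. Adam10, which sheds Notch receptors, cadherins and amyloid precursor protein, had the highest level per kb over all members, 119 CPM per kb on average, and led the Adam genes in every library but G328V replicate 3, where Adam9 did. It had values of 649, 680 and 488 CPM across G328V compared with 877, 395 and 421 CPM across WT, with means of 606 ± 103 and 564 ± 271 CPM (SD, n = 3 each). The highest library exceeded the lowest by 2.22-fold, WT replicate 1 lay above all G328V libraries and the other WT libraries below them, and the log2 difference was 0.10 ± 0.38 (SE). Adam17, which releases TNF and EGF receptor ligands, showed 90.3, 138 and 84.5 CPM among G328V libraries, with 105, 109 and 155 CPM among those of WT, the smallest spread, 1.84-fold, of the 36 members counted in every library. Its log2 difference was -0.24 ± 0.30 (SE). Adam15 measured 69.3, 83.2 and 89.7 CPM in G328V libraries versus 44.2, 84.3 and 70.7 CPM in WT ones. Adam9 had values of 154, 200 and 438 CPM across G328V compared with 124, 307 and 145 CPM across WT, and its log2 difference of 0.46 ± 0.53 (SE) turned to -0.12 without G328V replicate 3. A p that misses the threshold does not show that these levels were equal: for Adam10 an interval of 2 standard errors runs from -0.66 to 0.86 on the log2 scale, and for Adam17 from -0.84 to 0.36.

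**Figure D4:**
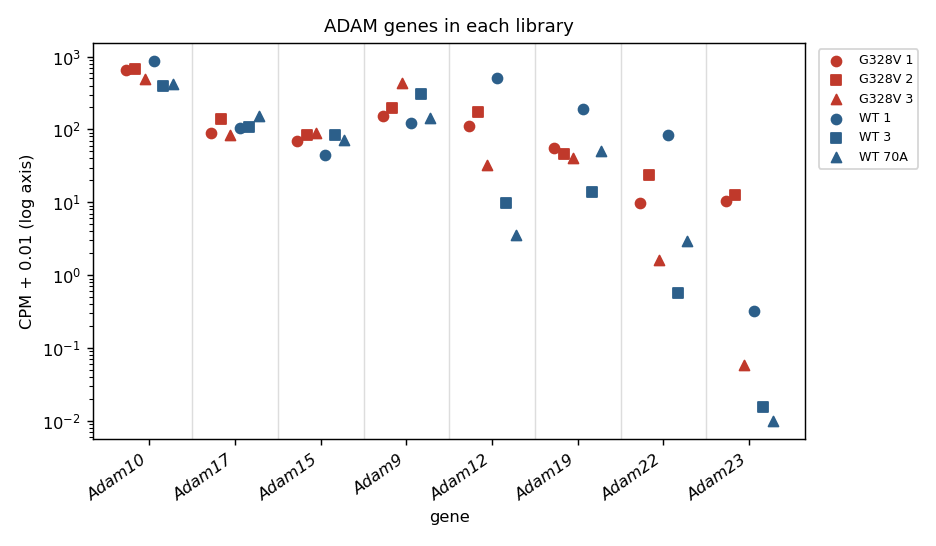
Level of 8 Adam genes in each library, as CPM + 0.01 on a log axis, with G328V libraries in red and WT libraries in blue. Adam10, Adam17 and Adam15 form tight groups of 6 points, while Adam12 and Adam22 spread over 143-fold and 151-fold and G328V replicate 3 lies among the WT points of Adam23.

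Other Adam genes varied with the library. Adam12, a metalloprotease of developing muscle and of tumours, showed 110, 175 and 32.2 CPM among G328V libraries, with 504, 9.64 and 3.53 CPM among those of WT, so the WT group held both the highest and the lowest levels. Adam19 measured 55.8, 45.5 and 40.8 CPM in G328V libraries versus 191.1, 13.8 and 51.0 CPM in WT ones, with WT replicate 1 again the highest. Adam22 and Adam23, which lack the catalytic site and bind the secreted LGI proteins at neuronal surfaces, were named after their values were seen. Adam22 had values of 9.74, 23.6 and 1.62 CPM across G328V compared with 83.5, 0.551 and 2.92 CPM across WT. Its counts per estimated fragment were 1.87, 1.85 and 0.952 in G328V and 1.92, 0.505 and 1.52 in WT, so its low values depend on the table. Adam23 showed 10.4, 12.7 and 0.0489 CPM among G328V libraries, with 0.317, 0.0057 and 0 CPM among those of WT. Among the 50 members tested by edgeR it had the largest difference, a log2 value of 6.17 ± 2.76 (SE), but G328V replicate 3, with 9 counts, lay below WT replicate 1, with 39. Its unadjusted p was 0.0658 and its adjusted p ranged from 0.159 to 1.0 over 14 alternatives. Adam8 lay at 1.40 to 7.03 CPM in all libraries, and Adam1a, Adam4, Adam5, Adam11 and Adam28 reached at most 2.19, 0.942, 0.283, 1.20 and 0.373 CPM.

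The 3 TIMP genes differed in how evenly they were expressed. Timp2, whose protein both inhibits MMPs and bridges MMP14 to the MMP2 precursor, measured 167, 242 and 94.6 CPM in G328V libraries versus 78.5, 551 and 271 CPM in WT ones. It was present in every library, with a 7.02-fold range, and held 40.3% to 99.9% of the summed level per kb of the 3 genes. The log2 difference was -0.84 ± 0.72 (SE), and it was -0.082 without WT replicate 3, which held the highest level. Timp3, which binds to the matrix and also inhibits ADAM17 and the aggrecanases, had values of 33.5, 533 and 0.125 CPM across G328V compared with 126, 74.0 and 8.39 CPM across WT. G328V held both extremes, with G328V replicate 3 at 23 counts and G328V replicate 2 at 64211. The log2 difference of 1.44 ± 2.10 (SE) turned to -2.05 without G328V replicate 2. Its exons share 1733 bases with Syn3 on the opposite strand. Timp4 showed 1.57, 158 and 0.0326 CPM among G328V libraries, with 7.97, 0.0114 and 0.0689 CPM among those of WT, so G328V replicate 2 held 94.2% of its summed level. Without that library its log2 difference of 4.31 ± 3.20 (SE) turned to -1.75. G328V replicate 2 thus had the highest level of Timp3, Timp4, Mmp17 and Adamts12 together, and there the fibroblast and mural marker Pdgfrb was at 75.9 CPM against 0.125 to 43.2 CPM in the other libraries. The 7 fibroblast and mural markers did not move together. In G328V replicate 2 they summed to 106 CPM, with Col3a1, Col1a1 and Rgs5 at 20.2, 8.88 and 1.33 CPM and Col1a2, Dcn and Lum at 0. The sum was 300 CPM in G328V replicate 3, where Rgs5 made up 299 CPM. It was 506 CPM in WT replicate 70A, where Col3a1 made up 455 CPM. The part of such cells in these levels was not tested.

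**Figure D5:**
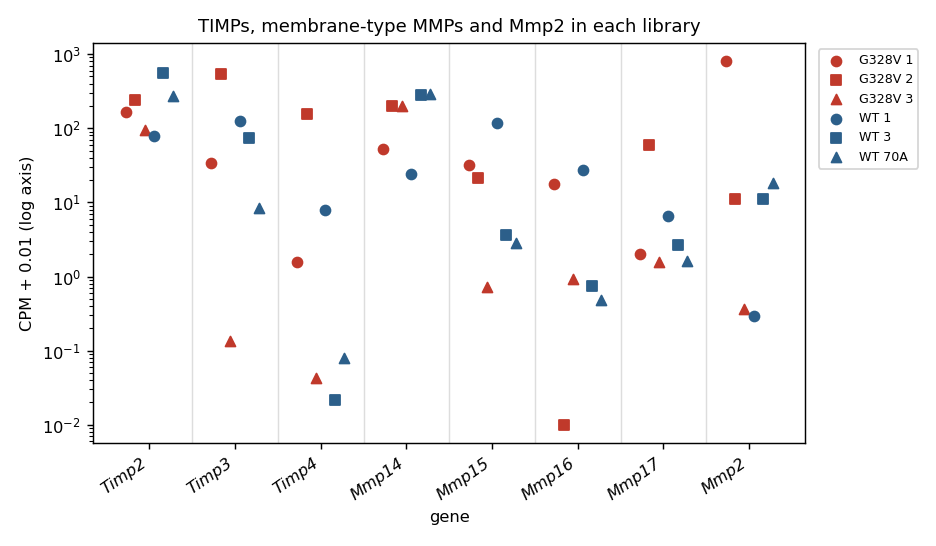
Level of the 3 Timp genes, 4 membrane-type Mmp genes and Mmp2 in each library, as CPM + 0.01 on a log axis, with G328V libraries in red and WT libraries in blue. Timp2 and Mmp14 stay above 20 CPM in all 6 libraries, whereas Timp4 and Mmp2 each have 1 G328V library far above the other 5.

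By level per kb, the make-up of the Mmp genes varied with the library. The leading Mmp gene was Mmp2 in G328V replicate 1, Mmp14 in G328V replicates 2 and 3 and WT replicate 3, Mmp15 in WT replicate 1 and Mmp3 in WT replicate 70A. The summed level of all Mmp genes was 274, 91.7 and 44.1 CPM per kb in G328V and 44.5, 69.3 and 675 CPM per kb in WT. Adamts genes summed to 68.7, 80.5 and 66.7 CPM per kb in G328V and to 80.4, 43.0 and 74.3 in WT, and Adam genes to 215, 246 and 242 in G328V and to 312, 188 and 163 in WT. The sums of the 3 Timp genes were 47.4, 154 and 24.3 CPM per kb in G328V and 37.0, 151 and 70.6 in WT. All 4 sums overlapped between the groups.

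Genes that activate, bind or are cut by these proteases were taken from 4 lists by role, chosen with earlier results of these data known. Of 16 tested activators and inhibitors, 9 had positive and 7 negative differences, none with an unadjusted edgeR p under 0.05, which 4.06% of all genes tested had. The groups did not overlap for 1 of the 16, Spock2, beside 9.72% of all genes tested. Spock2 measured 12.3, 22.5 and 3.89 CPM in G328V libraries versus 3.17, 0.0057 and 1.41 CPM in WT ones. Its log2 difference was 3.07 ± 1.73 (SE), with an adjusted p of 0.997 by edgeR. Spock1, a testican proteoglycan, was at 108 CPM in WT replicate 3, but no more than 1.47 CPM elsewhere. Pcsk6, a proprotein convertase, measured 47.2, 15.4 and 175 CPM in G328V libraries versus 12.2, 38.8 and 22.9 CPM in WT ones. Furin, which removes the propeptide of many ADAM, ADAMTS and membrane-type MMP precursors, lay at 88.8 to 480 CPM. Reck, a membrane-anchored MMP inhibitor, was highest in G328V replicate 2, at 8.81 CPM, while the others had 0.758 to 1.84 CPM. Furin and Reck were named for their roles, and Spock2 because its groups did not overlap.

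Partners of ADAMs and receptors that clear these enzymes included 19 tested genes, of which 3 had an unadjusted p under 0.05, beside 4.06% of all genes tested, and none passed edgeR's FDR. Tspan15, a tetraspanin that binds ADAM10 and directs it to N-cadherin, had values of 12.3, 11.9 and 9.78 CPM across G328V compared with 92.7, 121 and 28.4 CPM across WT. All 3 WT libraries lay above all G328V libraries, with means of 11.3 ± 1.36 and 80.6 ± 47.3 CPM (SD, n = 3 each) and a log2 difference of -2.83 ± 0.56 (SE). The unadjusted edgeR p of Tspan15 was 0.00209, its adjusted p was 0.997 by edgeR and 0.00124 by DESeq2, which called 0.478% of genes lower in G328V, and the range over 15 alternatives was 0.00124 to 1.0. Tspan5, another ADAM10 partner, showed 112, 112 and 165 CPM among G328V libraries, with 72.8, 95.9 and 54.4 CPM among those of WT, with a log2 difference of 0.80 ± 0.31 (SE) and an adjusted p of 0.997 by edgeR. Lgi3, which encodes a secreted ligand of ADAM22 and ADAM23, measured 7.50, 2.47 and 1.37 CPM in G328V libraries versus 0.235, 0.443 and 1.08 CPM in WT ones, a log2 difference of 2.69 ± 1.10 (SE) with an adjusted p of 0.997 by edgeR. The groups of these 3 genes did not overlap, beside 9.72% of all genes tested. Adam10 itself overlapped between the groups, as given above.

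Of 5 tested proteoglycan substrates, 2 had positive differences and none had an unadjusted p under 0.05, beside the same 4.06% of all genes. Versican (Vcan) had values of 115.9, 32.4 and 581 CPM across G328V compared with 123, 471 and 551 CPM across WT. Biglycan (Bgn) showed 74.1, 474 and 0.179 CPM among G328V libraries, with 0.227, 0.472 and 116.4 CPM among those of WT, and aggrecan (Acan) was at 16.2 CPM in G328V replicate 3, but no more than 3.31 CPM elsewhere. Of 15 tested substrates of ADAMs, 9 had positive differences, and Hbegf, an EGF receptor ligand released by ADAMs, was the only one with an unadjusted p under 0.05, at 0.0468, beside 4.06% of all genes. Hbegf measured 22.9, 86.7 and 48.3 CPM in G328V libraries versus 200, 149 and 77.0 CPM in WT ones, and its log2 difference of -1.43 ± 0.58 (SE) had an adjusted p of 0.997 by edgeR. Ptprz1 and Epha3, which encode a receptor phosphatase and an ephrin receptor, were each high in a single library. For Ptprz1 it was WT replicate 1, with 880 CPM where the next library had 9.70 CPM. For Epha3 it was G328V replicate 1, with 323 CPM where the next library had 1.99 CPM.

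The 10 members below the count filter averaged 0.0054 to 1.08 CPM over the 6 libraries. Beside Mmp8, Mmp12, Adamts16 and Adamts19, they were Mmp21, with 6 counts in G328V replicate 3 and 0 elsewhere, and 5 Adam genes. Adam2 had 34 counts in WT replicate 70A and 0 elsewhere, Adam18 had 31 in G328V replicate 3 and 0 elsewhere, and Adam21 had 20 and 10 in WT replicates 1 and 70A and 0 elsewhere. Adam32 had 132 counts in G328V replicate 3 and at most 7 in the other libraries, and Adam33 had 127 in G328V replicate 1 and at most 42. Adam2 and Adam18 are known from male germ cells.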

How the data were processed

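Gene counts were measured by RNA-seq in 6 neurosphere libraries, grouped by the genotype in the labels. Per the labels' protocols, total RNA was depleted of ribosomal RNA and read as paired ends, and both a stranded TruSeq and a Pico kit are named. Per the submitters' processing notes, the build was mm10 and the tools included FastQC 0.11.3, TopHat2 2.0.13 and Bowtie2 2.2.1. What each did, how strand was used in counting and which annotation served were not given in the sources read. Raw counts came from the authors' HTSeq table of 17551 gene symbols, in which 0 rows lack a gene name. Estimated counts, one per gene for 23107 genes, came from the authors' Cufflinks table and were rounded to whole numbers. HTSeq counts were 1.95 to 1.96 times the Cufflinks values in the median over the 8924 genes that reached 500 counts in all libraries, so counts are not independent molecules.

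The main test was the quasi-likelihood F-test of edgeR 4.0.16 under R 4.3.3 (robust legacy fit, TMM, filterByExpr with a minimum count of 10, no covariate), with Benjamini-Hochberg adjustment over 14643 genes. Standard errors come from the F statistic. Alternatives were DESeq2 1.42.0, limma 3.58.1 (voom), the newer edgeR fit, other scalings and filters, the Cufflinks table, a replicate block and leaving out each library. The test was checked on simulated data. The closest pair of libraries differed with a chi-square of 1290 per degree of freedom. Totals were 115953495 to 191115532 counts. Standard errors cover the spread between libraries, and the floor of 3, which is in fragments, covers counting error only.

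Positions and exon lengths come from GENCODE vM21 (GRCm38, the same assembly as mm10), and promoters from RefSeq. Named members are Timp2, Timp3, Timp4, Mmp2, Mmp9, Mmp14, Adam10, Adam17, Adamts1, Adamts4 and Adamts5, and the 10 with the highest level per kb. They also include those with an unadjusted p under 0.05 or groups that did not overlap at 1 CPM or more, and those of at least 1 CPM in which 1 library held at least 70% of the summed CPM. From each pathway list the up to 3 genes with the smallest p were named. Other members are described beside them after their values were seen. Members and lists were chosen with earlier results of these data known. The markers Map2, Aif1 and Cldn5 were not analysed here.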

Additional observations from a re-analysis of the deposited data

Results flagged for a closer look

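Adam7 and Adamts13 match the symbols of the family but appear in the Cufflinks table alone, which the comparison of counts does not use. Adam7 had 16 estimated fragments in G328V replicate 1 and 0 in each of the other 5 libraries. Adamts13, which cuts von Willebrand factor, had 4 estimated fragments in G328V replicate 1 and 0 in the others. Both were singled out because the values exceed those of the WT libraries and the 3 that a count of 0 allows. Of 77 family members in that table, 17 were read from it alone, and 14 of the 17 were at 0 in every library.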

How the results depend on the processing

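edgeR called 0 members and 0 genes under the other scalings and filters, with the newer fit, with the Cufflinks table, with the replicate block and without each library (lowest and highest 0), and limma-voom also called 0. DESeq2 called 173 genes and 1 member. Members at an unadjusted p under 0.05 numbered 0 in the main test (all genes 4.06%), 2 of 60 with no filter (3.33%, all genes 3.76%), 7 of 47 by DESeq2 (14.9%, all genes 6.95%), 1 of 50 by limma-voom (2%, all genes 4.03%), 2 of 50 with the newer edgeR fit (4%, all genes 6.11%) and 6 of 50 with the replicate block (12%, all genes 4.16%). Without a library they numbered 0 to 6, the 6 of 52 without WT replicate 1 (11.5%, all genes 6.75%). The median log2 difference ranged from -0.79 (without G328V replicate 1) to 0.49 (without WT replicate 1) when a library was left out, and it was 0.32 without WT replicate 70A. It was 0.03 with the replicate block and -0.35 to -0.09 under the other settings that kept all libraries. Members with positive differences numbered 17 to 30 without a library. Of 24 named members tested, 19 changed direction under at least 1 of 15 alternatives, and none passed the FDR under any of them. Replicate numbers 1 and 3 occur in both groups, and deviations of same-numbered libraries from their group means correlated at 0.181 and 0.226 across genes, but with only these pairs the numbers do not establish a pairing. With the replicate block, which compares the libraries numbered 1 and 3 alone, log2 differences were -0.065 for Adam10, -0.65 for Adamts4, 1.65 for Adamts5, 3.24 for Mmp10, 2.37 for Mmp13, 0.32 for Mmp14, -1.22 for Mmp17, 3.82 for Mmp1a, 2.52 for Mmp1b, 3.09 for Mmp3, -5.45 for Timp3 and -0.91 for Timp4. With limma-voom they were 0.72 for Adamts20, -0.0165 for Adamts4 and -2.23 for Timp3. The cause was not tested.

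Leaving out single libraries gave ranges of -0.11 to 0.55 for Adam10, -0.12 to 0.96 for Adam9, -0.49 to 0.94 for Adamts1, -12.13 to 0.36 for Adamts18, -6.40 to 8.88 for Adamts20, -0.43 to 0.73 for Adamts4, -4.73 to 0.75 for Adamts5, -5.47 to 2.17 for Mmp10, -4.41 to 1.65 for Mmp13, -0.94 to 0.0098 for Mmp14, -1.01 to 3.26 for Mmp17, -5.09 to 2.49 for Mmp1a, -0.80 to 5.59 for Mmp2, -4.03 to 0.84 for Mmp24, -7.77 to 3.14 for Mmp3, -0.19 to 2.39 for Mmp9, -2.05 to 2.17 for Timp3 and -1.75 to 10.30 for Timp4. The sizes for Adamts18, Adamts20 and Timp4 at the far end are fitted against libraries at or near 0 and are not measured values. Direction did not change without any library for Adam17 (-0.50 to -0.051), Adamts6 (-2.35 to -1.09), Adamts12 (1.08 to 5.01), Adamts14 (-0.99 to -0.38), Mmp1b (-4.77 to -0.57) and Timp2 (-1.31 to -0.082), but their sizes moved by over 1.5 times. Of the 10 members that did not reach the count filter, some had few counts, such as Mmp21 with 6 in all. Others had counts in few libraries, such as Adamts19, with 346 in WT replicate 1 and 0 elsewhere.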
